A study of Mus musculus with 6 samples.

Results

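The cytochrome P450 enzymes of families 1 to 4 were followed in 6 mouse liver samples. The genes were taken by symbol, as all genes whose name starts with Cyp1, Cyp2, Cyp3 or Cyp4 and a letter, and Cyp4a12a, Cyp2d9 and Cyp2e1 were left out by the same rule. The array held 61 such genes among the 18338 genes it could be named for. Of these, 59 lay well above background on at least 2 arrays and were tested, and 58 of them did so on all 6 arrays. Cyp2ab1 and Cyp4a29 were not well above background on any array. The largest subfamilies were 2c with 11 members, 4f with 7, 2d with 6 and 3a with 6.

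Cytochrome P450 enzymes are heme proteins that insert an oxygen atom into their substrates, with electrons passed on from NADPH by P450 oxidoreductase and in part by cytochrome b5. Families 1 to 3 are best known for oxidising drugs, toxins and steroids, and family 4 for hydroxylating fatty acids and leukotrienes. The liver holds most of them, largely in hepatocytes, where ligand-sensing factors such as the aryl hydrocarbon receptor, CAR, PXR and PPAR-alpha adjust their transcription and where liver-enriched factors and growth hormone set the resting level.

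All mice were of the BL6 background and carried the Fah deletion Fah_del_tm1Mgo. They lack the last enzyme of tyrosine breakdown and depend on the drug NTBC, which blocks an earlier step and was supplied in the drinking water at 7.5 µg/ml as the full dose. Mice called Fah carried no further deletion, and mice called FCR also carried Rag2_del_tm1Fwa and common gamma chain del tm1Wjl, so that they lack T, B and NK cells. Healthy Fah liver (n = 1) and normal FCR liver (n = 1) came from continuous NTBC, labelled 100%. Fah tumour (n = 2) and inflamed FCR liver (n = 2) each had 1 array of the regimen labelled off and 1 of that labelled 2xoff/on. Both regimens had rounds of NTBC withdrawal, and the labels do not settle in which phase each liver was taken. Healthy and tumour tissue therefore differ in NTBC regimen and in tissue type together, and genotype, lymphocytes and tumour tissue cannot be told apart between Fah tumour and inflamed FCR liver. Whether the arrays of a group stand for different animals is not stated in the labels, so p-values measure only the spread between these samples. The 2 arrays of a group also differ in regimen and slide, so that spread holds those differences too.

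RNA was hybridised to single-colour Agilent arrays with 43379 spots, and 60.5% to 74.5% of the spots on an array were well above background. Every level below is the log2 signal minus the 75th percentile of the same array. That percentile was 363 signal units on the healthy Fah array, 374 on the normal FCR array and 363 on the FCR array labelled off, and 724 to 889 on the other 3. The arrays labelled 2xoff/on shared slide 2, and the other 4 shared slide 1. Regimen and slide cannot be told apart for them. In a principal component analysis the second component (21.8% of the variance) put the inflamed FCR array labelled off at 104.3 and the other arrays at -53.0 to 8.0. Calls and counts that change without it, FCR inflamed replicate 1, are given beside the results. In the group comparisons, leaving out a tumour or inflamed array left 1 array in its group. The spread then came from the other group with 2 arrays, so calls gained this way are less sure than those from all 6 arrays. Il2rg, the common gamma chain, lay at -3.40, -1.94 and -1.98 on the Fah arrays and between -7.74 and -6.70 on the FCR arrays. The Y-linked genes Ddx3y and Eif2s3y lay at 1.08 to 2.14 and at 1.88 to 3.04 over all 6 arrays, as in male liver. Genes named below as female-predominant or female-specific were measured in these same livers. All 8 hepatocyte markers on the array were well above background on all 6 arrays. None of them passed the withdrawal test across both genotypes, and their median difference was -0.88 (range -1.11 to -0.29). Their summed level, in multiples of the 75th percentile, was 4161 in healthy liver, 2001 and 2035 in tumour, 3989 in normal FCR liver, and 3201 and 2640 in inflamed FCR liver. Of the markers of other cells, 6 of 8 for bile ducts and progenitors, 5 of 9 for stellate cells and fibroblasts, 4 of 10 for immune cells and 0 of 6 for endothelium rose, against 8.65% of all genes, with medians of 2.89, 1.79, 1.23 and -0.12. The summed bile duct level ran from 9.77 to 10.8 on continuous NTBC and from 17.1 to 161 on the other arrays, the summed stellate level from 36.8 to 38.9 and from 96.2 to 216, and the summed immune level from 6.64 to 6.89 and from 16.0 to 29.0. In bulk tissue, fewer hepatocytes and less P450 RNA per hepatocyte cannot be told apart, and the part of these marker shifts in the results below was not tested.

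The first question was how the P450 genes differed between livers with rounds of NTBC withdrawal and livers on continuous NTBC, over both genotypes. After withdrawal 22 of the 59 tested P450 genes fell, most steeply Cyp2c54 and Cyp2c37, and 5 rose, most steeply Cyp1a1 and Cyp2s1. In all, 27 passed at an adjusted p under 0.05 (limma over all 15378 genes), against 11.9% of all genes tested. The members that fell were 37.3% of those tested, where 3.28% of all genes fell. Those that rose, Cyp1a1, Cyp2s1, Cyp1b1, Cyp2c65 and Cyp2g1, were 8.47%, near the 8.65% of all genes that rose. The median difference of the members was -1.22 on the log2 scale, beside -0.02 for all genes, with 46 negative and 13 positive. In 35 members all 4 withdrawal arrays lay below both continuous arrays, which held for 20.9% of all genes, and in 6 members all 4 lay above, which held for 20% of all genes. The summed member level was 4671 and 4570 on the healthy and normal arrays, 1889 and 1555 in tumour, and 3402 and 2675 in inflamed FCR liver, in multiples of the 75th percentile. Between the off and 100% arrays, all on slide 1, the member median was -1.35 in Fah and -1.20 in FCR mice, beside -0.19 and 0.12 for all genes. With slide as a block, which leaves less to judge the spread by, 30 members and 22.4% of all genes passed. Without FCR inflamed replicate 1, the array labelled off, it was 35 members, with a median of -1.11, and 19% of all genes. Without FCR inflamed replicate 2 it was 36 members and 24.2% of all genes. With values raised to a common floor of -5.12 no member and no gene passed (10 members with robust eBayes), and with quantile normalization or the authors' deposited values 15 members passed (8.01% and 6.09% of all genes). The same 12 members did not pass in both, namely Cyp1a2, Cyp1b1, Cyp2a12, Cyp2c29, Cyp2d12, Cyp2d22, Cyp2g1, Cyp2j13, Cyp3a11, Cyp4f13, Cyp4f14 and Cyp4v3.

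**Figure D1:**
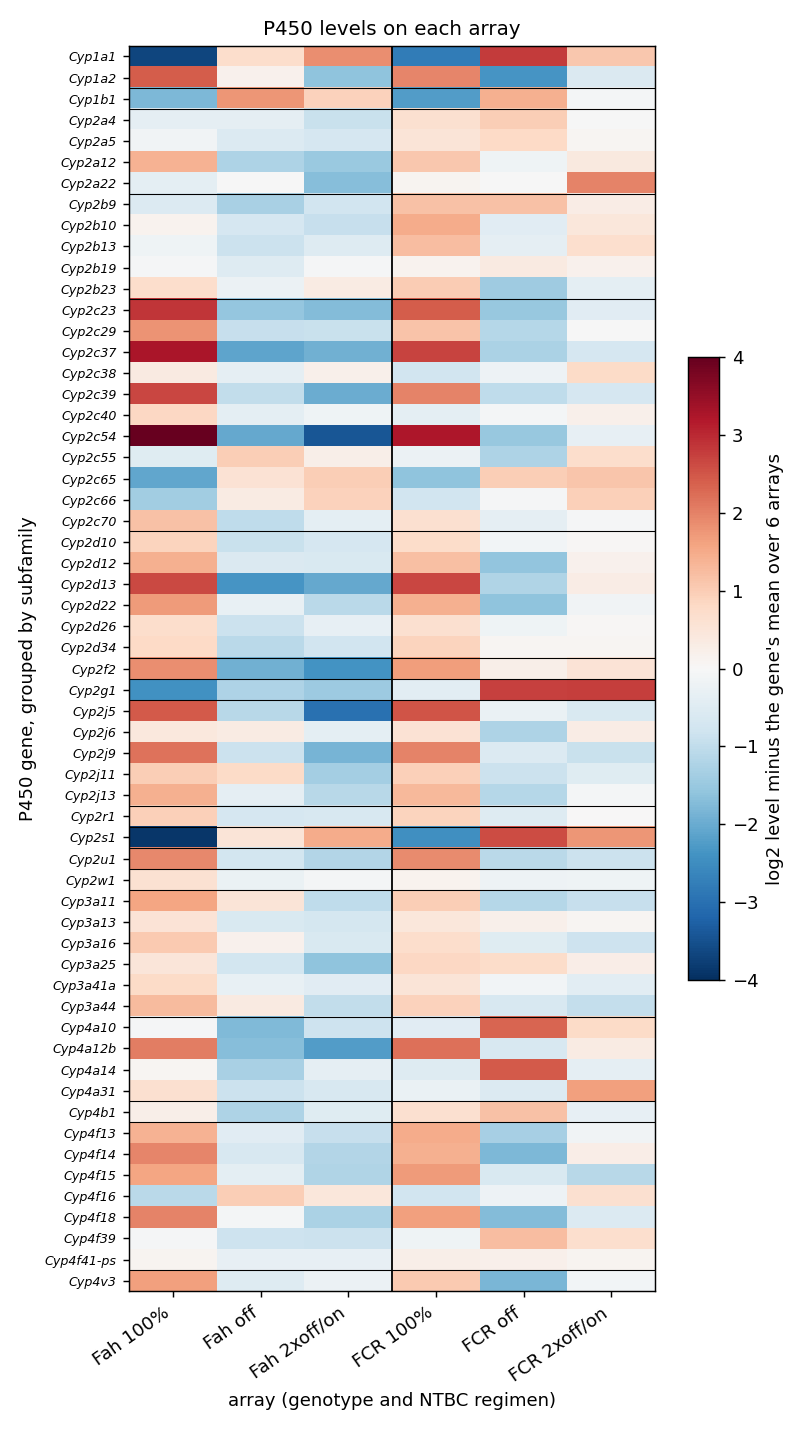
Log2 level of each of the 59 tested P450 genes (rows, grouped by subfamily) on each of the 6 arrays (columns), shown as the difference from the mean of the gene over the 6 arrays. In 35 rows all 4 withdrawal arrays lie below both 100% arrays, with Cyp1a1, Cyp1b1, Cyp2c65 and Cyp2s1 the other way round.

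**Figure D2:**
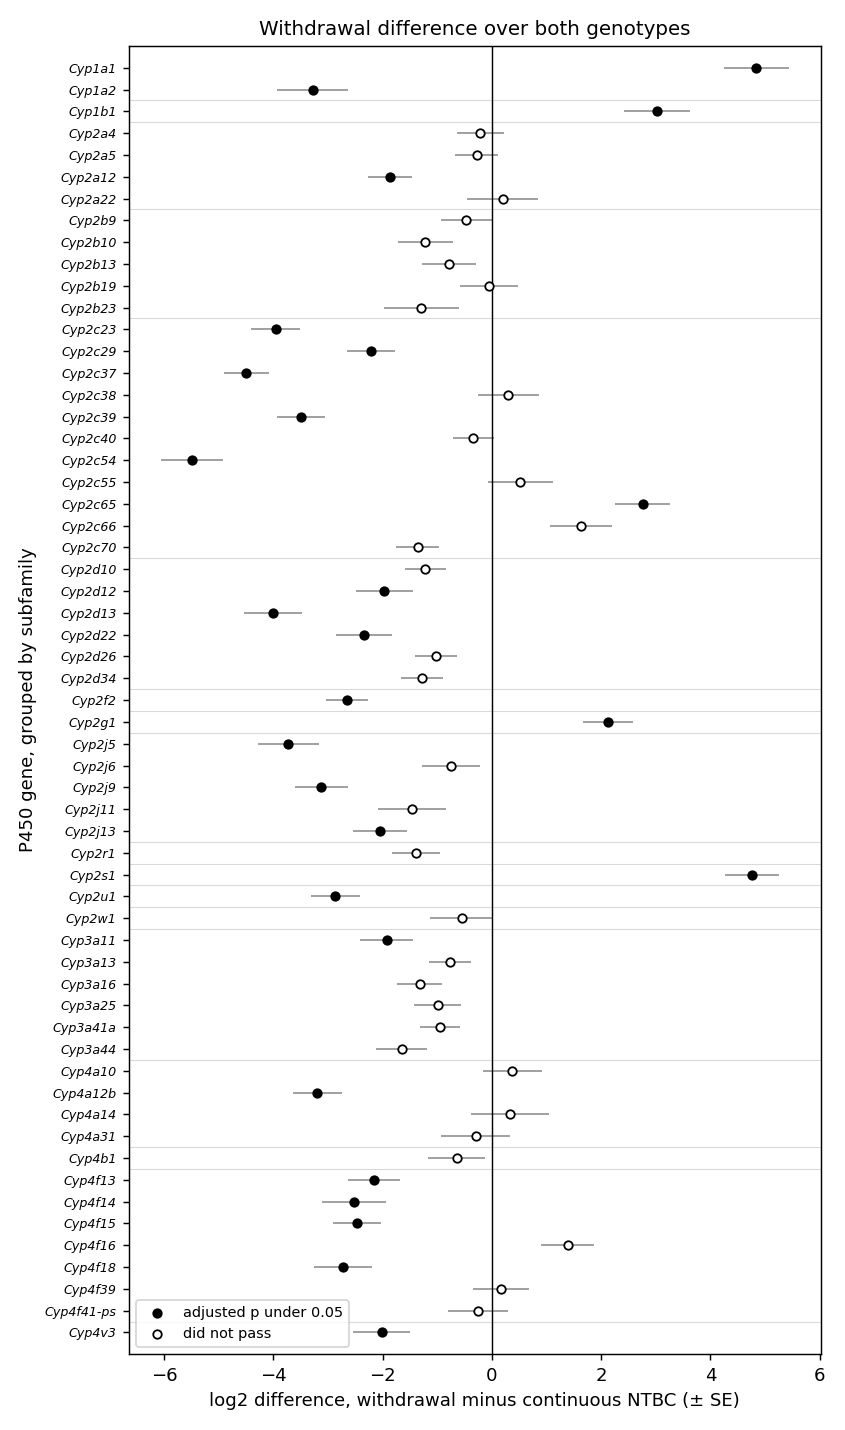
Log2 difference between the withdrawal and the continuous NTBC arrays over both genotypes (points) with its standard error (lines) for each tested P450 gene, grouped by subfamily. Filled points passed at an adjusted p under 0.05 in limma, 5 above 0 and 22 below.

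Family 1 split by gene. Cyp1a1, the inducible target of the aryl hydrocarbon receptor that oxidises polycyclic aromatic hydrocarbons, measured -3.38 in healthy liver, then 1.01 and 2.15 in tumour. It was at -2.49 in normal FCR liver and at 3.09 and 1.38 in inflamed FCR liver. All 4 withdrawal arrays lay far above both continuous arrays, and the rise was 4.84 ± 0.60 (log2 difference ± SE, n = 4 and 2, adjusted p = 0.00198 in limma), a 28.7-fold difference. Cyp1a2, the constitutive hepatic enzyme for caffeine and aromatic amines, went the opposite way, from 5.48 to 3.22 and 1.44 in Fah mice and from 5.0 to 0.69 and 2.49 in FCR mice. The groups did not overlap in either genotype, and the fall was -3.28 ± 0.65 (adjusted p = 0.0137 in limma), 9.72-fold. Cyp1a1 and Cyp1a2 are neighbours on chromosome 9, read in opposite directions. Cyp1b1, which hydroxylates oestradiol and aromatic hydrocarbons and is known mainly outside the liver, rose by 3.02 ± 0.60 (adjusted p = 0.0135 in limma), from -4.09 to -0.52 and -1.37 in Fah and from -4.52 to -0.85 and -2.37 in FCR mice. The rise of Cyp1b1 was 1.29 after normexp background correction and did not pass there (adjusted p = 0.0572 in limma).

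The promoter windows of the 3 family 1 genes are printed because these genes moved in opposite directions. They come from RefSeq on build GRCm38.p6 and run from 250 bases before to 50 bases after the gene start, 5′ to 3′ on the gene's own strand. Cyp1a1 is at chr9:57697363-57697662 on the plus strand, Cyp1a2 at chr9:57683606-57683905 on the minus strand and Cyp1b1 at chr17:79715012-79715311 on the minus strand. Capitals mark GCGTG, the core letters bound by the aryl hydrocarbon receptor, or its reverse complement.
Cyp1a1: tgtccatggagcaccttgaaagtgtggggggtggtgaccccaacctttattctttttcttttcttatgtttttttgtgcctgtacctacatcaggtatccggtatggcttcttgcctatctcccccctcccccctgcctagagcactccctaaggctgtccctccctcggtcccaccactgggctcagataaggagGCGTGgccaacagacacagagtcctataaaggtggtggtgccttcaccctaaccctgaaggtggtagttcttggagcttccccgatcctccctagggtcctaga
Cyp1a2: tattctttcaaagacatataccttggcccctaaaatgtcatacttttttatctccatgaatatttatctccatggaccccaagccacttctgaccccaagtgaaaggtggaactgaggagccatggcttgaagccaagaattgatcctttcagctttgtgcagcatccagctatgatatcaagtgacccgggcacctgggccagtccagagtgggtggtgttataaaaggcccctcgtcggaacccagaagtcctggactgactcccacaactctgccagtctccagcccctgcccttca
Cyp1b1: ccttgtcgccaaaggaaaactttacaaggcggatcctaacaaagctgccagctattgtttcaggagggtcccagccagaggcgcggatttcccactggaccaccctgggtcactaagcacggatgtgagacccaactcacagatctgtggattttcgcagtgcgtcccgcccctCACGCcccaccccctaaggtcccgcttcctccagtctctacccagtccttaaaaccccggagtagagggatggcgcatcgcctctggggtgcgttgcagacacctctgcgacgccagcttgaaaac
The core began 54 bases before the start of Cyp1a1 and, reversed, 76 bases before the start of Cyp1b1, and these letters were not in the window of Cyp1a2. Sites outside the windows were not searched, so this does not show whether the receptor acts on Cyp1a2. RefSeq windows were matched for 48 of the 61 members, 54 windows in all. On both strands, and with matches of different motifs allowed to overlap, GCGTG was in 24.1% of the member windows and in 32.4% of all 32851 windows of the same length. The TATA box letters TATAAA were in 38.9% and 13.6%, GTTAAT (letters of an HNF1 site) in 9.26% and 7.10%, and TGACNNNGC (the core of the antioxidant response element) in 11.1% and 12.4%. Of members that passed over both genotypes, those that rose had GCGTG in 2 of 4 windows and those that fell in 5 of 20. The windows of Cyp2s1 and Cyp2c65, which rose, lacked it. Cyp2j9, Cyp2j13, Cyp4f14 and Cyp4v3, which fell, held it in at least 1 window. A match is a run of letters and no more.

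The other members that rose are enzymes known chiefly from epithelia outside the liver. Cyp2s1, an epithelial enzyme also inducible through the aryl hydrocarbon receptor, was at -3.35 in healthy liver, 1.02 and 2.00 in tumour, -1.94 in normal FCR liver, and 3.13 and 2.28 in inflamed FCR liver. It rose by 4.76 ± 0.50 (n = 4 and 2, adjusted p = 0.00109 in limma), 27.0-fold, and no withdrawal array came near a continuous one. Cyp2c65, an intestinal member of subfamily 2c, rose by 2.76 ± 0.50 (adjusted p = 0.00966), from -4.89 to -2.23 and -1.82 in Fah and from -4.41 to -1.82 and -1.69 in FCR mice. It remained below the 75th percentile on every array, and after normexp background correction its difference was 0.90 and did not pass (adjusted p = 0.173 in limma). Cyp2g1, an enzyme of the olfactory mucosa, rose by 2.12 ± 0.46 (adjusted p = 0.0192 in limma). Its levels were -3.80, -2.61 and -2.83 in Fah and -1.80, 1.36 and 1.37 in FCR mice, so that tumour stayed below normal FCR liver and the groups overlapped across genotypes. A second, dimmer probe was well above background on only 2 arrays. It lay at -6.83, -7.81 and -7.87 in Fah and at -6.34, -3.93 and -2.65 in FCR mice. Cyp2g1 did not pass with the mean of both probes (1.57, adjusted p = 0.0872 in limma) or with scaling to the array median (1.80, adjusted p = 0.0602). Without Fah tumour replicate 1 or 2 the adjusted p of Cyp2g1 was 0.0556 and 0.0528.

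**Figure D3:**
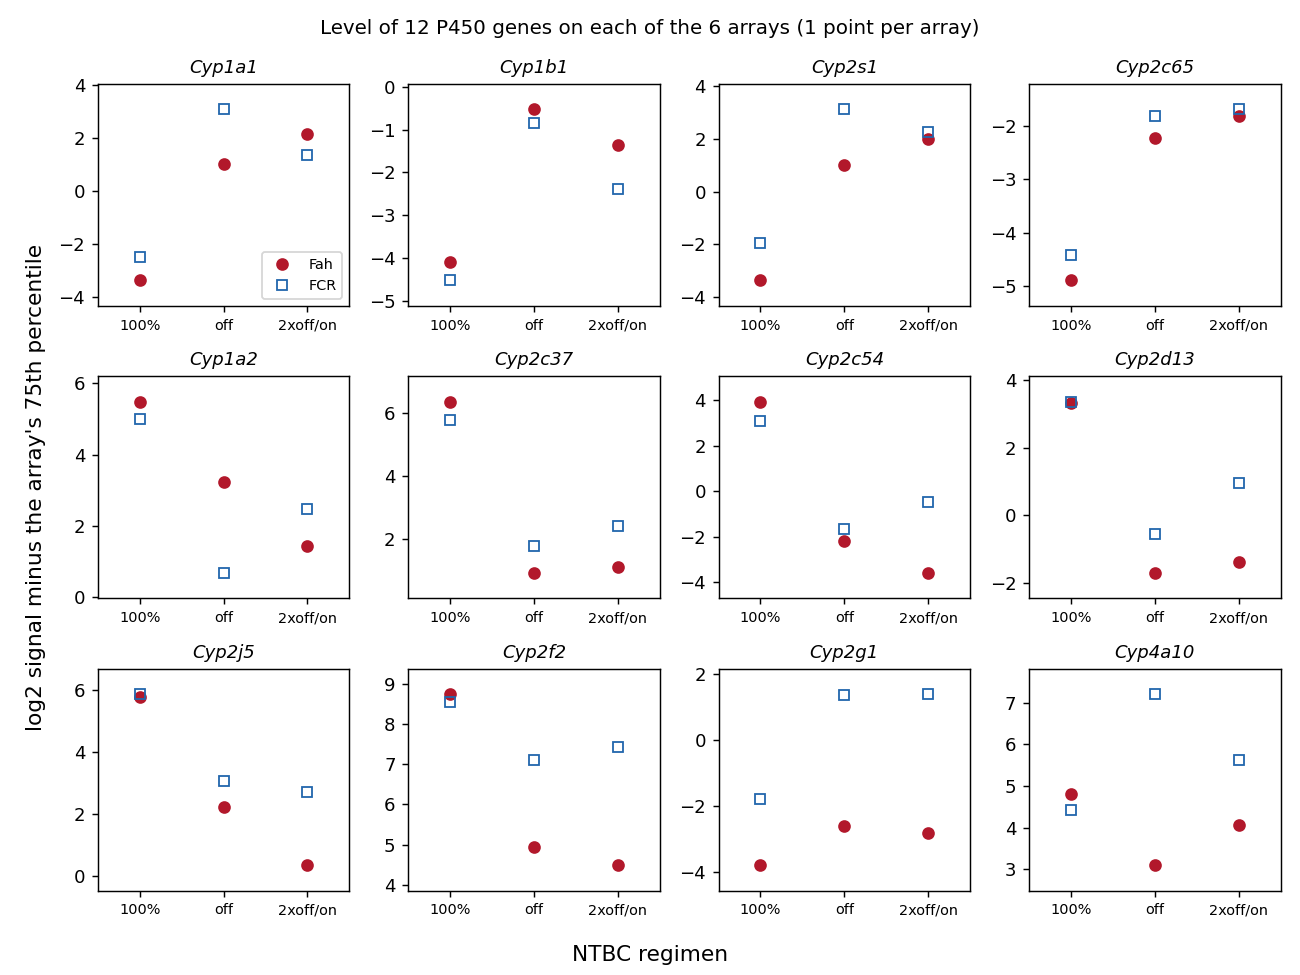
Log2 level relative to the array's 75th percentile (vertical axes, separate scale in each panel) of 12 P450 genes under the 3 NTBC regimens (horizontal axis), 1 point per array, filled circles for Fah and open squares for FCR mice. Cyp1a1, Cyp1b1, Cyp2s1 and Cyp2c65 are lowest on the 100% arrays of each genotype, 5 genes from Cyp1a2 to Cyp2j5 are highest there, and Cyp2f2, Cyp2g1 and Cyp4a10 part by genotype on the withdrawal arrays.

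Subfamily 2c held the deepest fall of any member and also a member that rose. Its median was -1.36, with 5 of 11 members lower and 1, Cyp2c65, higher. Cyp2c54 fell from 3.93 in healthy liver to -2.19 and -3.58 in tumour, and from 3.09 in normal FCR liver to -1.66 and -0.49 in inflamed liver. The difference was -5.49 ± 0.57 (n = 4 and 2, adjusted p = 0.00106 in limma), 45.0-fold, and the groups were far apart. Cyp2c37, an arachidonic acid hydroxylase that CAR induces, went from 6.34 to 0.94 and 1.12 and from 5.77 to 1.79 and 2.40. It fell by 4.49 ± 0.41 (adjusted p = 0.000661), 22.5-fold, the lowest adjusted p among the members. Cyp2c23, an arachidonic acid epoxygenase, fell by 3.96 ± 0.45 (adjusted p = 0.00142), Cyp2c39, a retinoic acid hydroxylase, fell by 3.49 ± 0.44, and Cyp2c29, which CAR also induces, fell by 2.21 ± 0.44 (adjusted p = 0.0138). Cyp2c70, the brightest of the subfamily and the enzyme that makes muricholic acids in mice, differed by -1.36 ± 0.40 without passing (adjusted p = 0.0616). It passed without FCR inflamed replicate 1 or 2 (adjusted p of 0.0324 and 0.0111). Cyp2c40 lay at 6.65, 5.42 and 5.64 in Fah and at 5.44, 5.72 and 6.02 in FCR mice, and its difference of -0.34 did not pass. Cyp2c38, at 0.30, did not pass either.

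All 11 members of subfamily 2c lie on chromosome 19, and whether direction goes with position there was not tested. Cyp2c55, Cyp2c65 and Cyp2c66, which lie side by side, had differences of 0.52, 2.76 and 1.63, of which only that of Cyp2c65 passed. Without FCR inflamed replicate 1 Cyp2c66 passed too (1.88, adjusted p = 0.0379 in limma). Next to them, ordered by the lowest annotated position, lie Cyp2c29 and Cyp2c39 with -2.21 and -3.49. RefSeq gives Cyp2c39 a start on either side of that of Cyp2c38, so the order of these genes depends on the start taken. Cyp2c38 and Cyp2c40 follow with 0.30 and -0.34, which did not pass, and then Cyp2c37, Cyp2c54 and Cyp2c70 with -4.49, -5.49 and -1.36. Whether a probe of a close paralogue also binds its neighbours was not tested here, and this holds for all the large subfamilies.

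**Figure D4:**
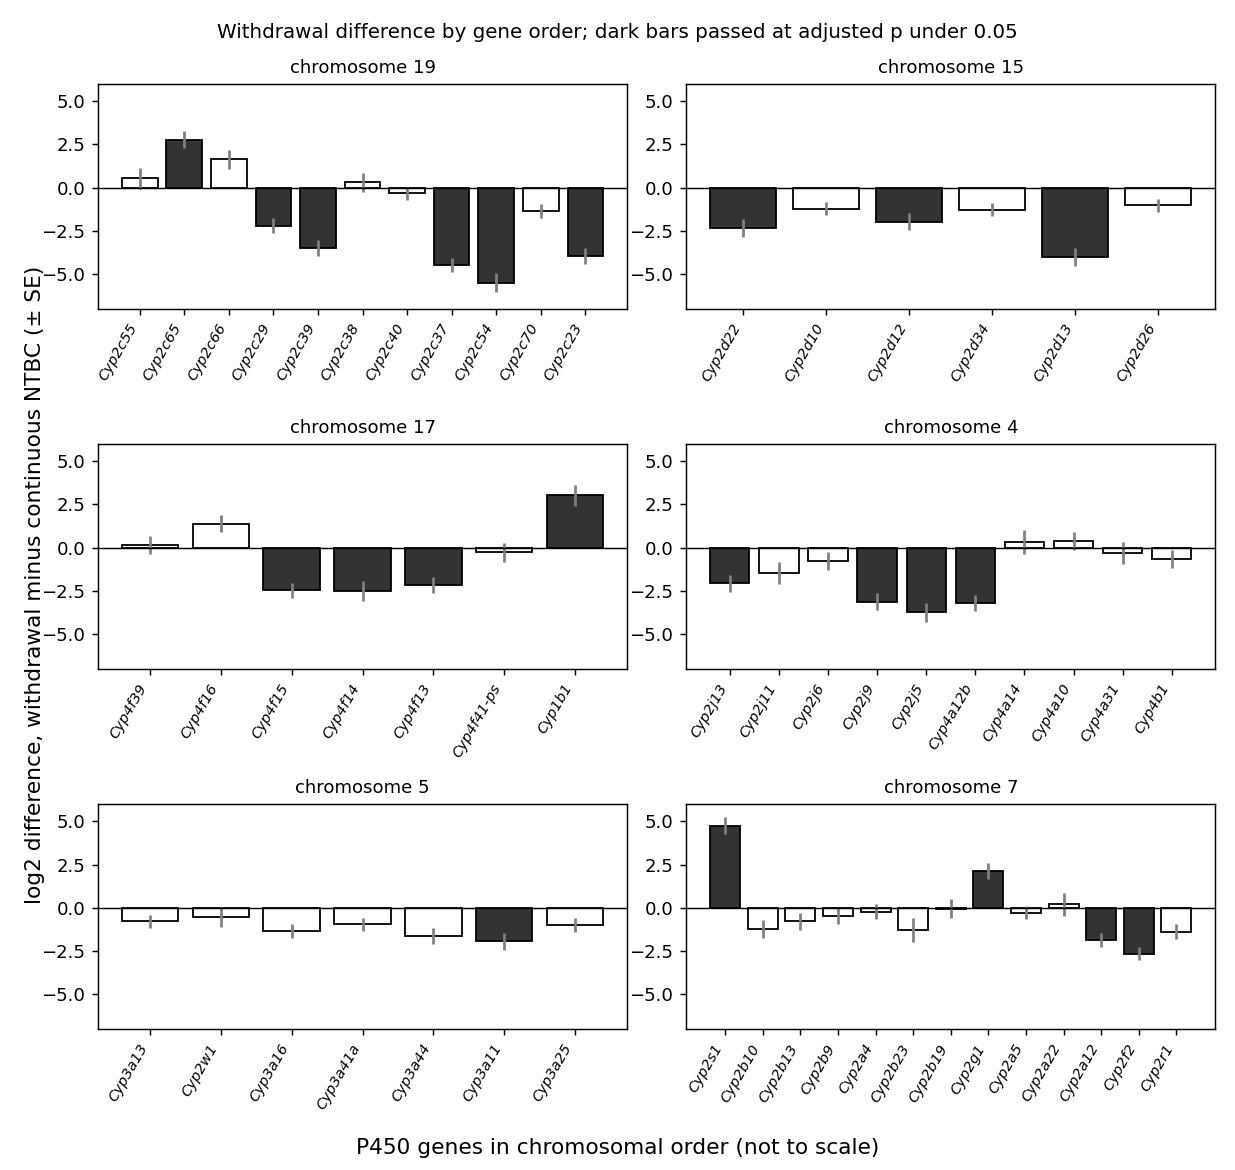
Log2 difference between withdrawal and continuous NTBC (bars, with standard error) for P450 genes in their order along 6 chromosomes, not to scale. Dark bars passed at an adjusted p under 0.05. On chromosome 19 the bar of Cyp2c65 is dark and points up, and the dark bars of Cyp2c37, Cyp2c54 and Cyp2c23 point far down.

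In subfamilies 2d and 2j 3 members each fell and none rose. All 6 members of 2d, the subfamily of the human drug-metabolising enzyme CYP2D6, had negative differences, with a median of -1.62, and 3 passed. Cyp2d13 fell by 4.0 ± 0.52 (adjusted p = 0.00239 in limma), 16.1-fold, from 3.32 to -1.69 and -1.38 in Fah and from 3.35 to -0.54 and 0.95 in FCR mice. Every withdrawal array was more than 2 log2 units below both continuous ones. Cyp2d22 fell by 2.34 ± 0.51 (adjusted p = 0.0207) and Cyp2d12 fell by 1.96 ± 0.52 (adjusted p = 0.0414). Cyp2d26, the brightest of the subfamily, went from 8.47 to 6.89 and 7.42 and from 8.42 to 7.58 and 7.81 without passing (adjusted p = 0.13). It passed without FCR inflamed replicate 2 (adjusted p = 0.0443), and Cyp2d10 and Cyp2d34 passed without FCR inflamed replicate 1 (0.0369 and 0.0231) or 2 (0.0175 and 0.0144). All 5 members of 2j, which convert arachidonic acid to epoxides, were negative too, with a median of -2.04 and 3 passing. Cyp2j5, an epoxygenase of kidney and liver, fell by 3.72 ± 0.55 (adjusted p = 0.00413), 13.2-fold. Its levels were 5.77, 2.22 and 0.35 in Fah and 5.85, 3.07 and 2.70 in FCR mice, lowest in the tumour labelled 2xoff/on. Cyp2j9 fell by 3.12 ± 0.49 and Cyp2j13 fell by 2.04 ± 0.49 (adjusted p = 0.0293), though for Cyp2j13 a second, dimmer probe differed by only -0.23. Without Fah tumour replicate 2 the adjusted p of Cyp2j13 was 0.0965. Cyp2j6 and Cyp2j11 differed by -0.75 and -1.46 and did not pass, though without FCR inflamed replicate 2 Cyp2j6 did (-1.14, adjusted p = 0.0431).

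Among the single genes of family 2, Cyp2f2, which activates naphthalene and in liver marks the periportal zone, fell by 2.65 ± 0.39 (adjusted p = 0.00387 in limma), and its levels by genotype are given below. Cyp2u1, a hydroxylase of long-chain fatty acids, fell by 2.87 ± 0.45 (adjusted p = 0.00506). It went from 1.42 to -1.25 and -1.67 in Fah and from 1.39 to -1.57 and -1.37 in FCR mice. The fall differed by -0.02 between the genotypes. Cyp2r1, the vitamin D 25-hydroxylase, differed by -1.39 ± 0.44 and did not pass (adjusted p = 0.0772). It passed without FCR inflamed replicate 1 or 2 (adjusted p of 0.0402 and 0.0125).

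In subfamily 2a 1 of 4 members passed, and in 2b none of 5. Cyp2a5, the coumarin hydroxylase, lay between 8.08 and 9.55 on all 6 arrays and Cyp2a4, a testosterone hydroxylase, between 7.93 and 9.82, with withdrawal differences of -0.28 and -0.21. Both were higher on each FCR array than on the Fah array of the same regimen. The sign of these small values turned under quantile normalization (0.47 and 0.50) and in the authors' deposited values (0.48 and 0.63). Cyp2a22 lay at 0.20, also with a sign that turned, at -0.12 after scaling to the array median. Cyp2a12, a testosterone hydroxylase, was the member of 2a that passed. It fell by 1.86 ± 0.40 (adjusted p = 0.0185 in limma), from 6.19 to 3.55 and 3.33 in Fah and from 5.88 to 4.63 and 5.19 in FCR mice, and without Fah tumour replicate 2 its adjusted p was 0.0553. The median of 2b was -0.78, and Cyp2b10, the best-known target of CAR, was dim at -1.53, -2.37 and -2.61 in Fah and -0.21, -2.15 and -1.23 in FCR mice (-1.22 ± 0.50, adjusted p = 0.163). It passed without FCR inflamed replicate 2 (adjusted p = 0.0389) and with slide as a block (0.0421). Cyp2b9 and Cyp2b13, known as female-predominant in mice, differed by -0.47 and -0.78, and the probes of Cyp2b13 disagreed in sign.

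In subfamily 3a 1 of 6 members passed, Cyp3a11. The differences of the brightest probes were all negative, with a median of -1.16 and a range of -1.92 to -0.77. Cyp3a11, the main PXR-induced drug oxidase of mouse liver and the counterpart of human CYP3A4, went from 8.43 to 7.36 and 5.83 in Fah and from 7.83 to 5.69 and 5.93 in FCR mice. The fall was 1.92 ± 0.49 (adjusted p = 0.0358 in limma), 3.80-fold, and without Fah tumour replicate 2 its adjusted p was 0.0872. Cyp3a41a, the brightest of the subfamily, was at 8.89, 7.85 and 7.69 in Fah and 8.66, 8.02 and 7.73 in FCR mice (-0.95 ± 0.37, adjusted p = 0.142). Cyp3a16, known from fetal liver, differed by -1.32 ± 0.41, Cyp3a25 by -0.99 and Cyp3a13 by -0.77. Of these Cyp3a16 passed without FCR inflamed replicate 1 or 2 (adjusted p of 0.0248 and 0.0268). Cyp3a44 had 2 probes that disagreed. The bright one, at 7.99, 7.09 and 5.76 in Fah and 7.66, 6.08 and 5.79 in FCR mice, differed by -1.65 (adjusted p = 0.0522), whereas the dim one was higher on every withdrawal array, going from -3.81 to 1.39 and 2.03 and from -3.65 to -1.19 and 1.10. With the mean of both probes the sign of Cyp3a44 turned, to 1.46, and it did not pass (adjusted p = 0.0663). The bright probe passed without Fah tumour replicate 1 (adjusted p = 0.0102), FCR inflamed replicate 1 (0.0221) or FCR inflamed replicate 2 (0.0186).

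The windows of 3 members of subfamily 3a are printed because each holds CAAAGTCCA, an element of the hepatocyte factor HNF4A, shown in capitals. Cyp3a11 is at chr5:145879805-145880104, Cyp3a16 at chr5:145469674-145469973 and Cyp3a41a at chr5:145720087-145720386, all on the minus strand of GRCm38.p6, from RefSeq.
Cyp3a11: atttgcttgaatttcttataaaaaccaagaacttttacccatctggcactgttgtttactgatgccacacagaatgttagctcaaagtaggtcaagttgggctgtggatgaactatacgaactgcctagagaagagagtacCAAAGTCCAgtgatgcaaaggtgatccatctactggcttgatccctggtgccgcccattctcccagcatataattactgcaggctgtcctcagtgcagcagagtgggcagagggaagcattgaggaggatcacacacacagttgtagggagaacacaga
Cyp3a16: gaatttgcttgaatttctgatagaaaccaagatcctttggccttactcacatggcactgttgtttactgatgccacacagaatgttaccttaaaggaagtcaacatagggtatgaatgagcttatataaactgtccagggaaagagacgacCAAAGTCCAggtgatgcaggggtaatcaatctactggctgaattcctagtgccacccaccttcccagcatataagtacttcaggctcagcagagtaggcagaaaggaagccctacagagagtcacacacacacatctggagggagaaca
Cyp3a41a: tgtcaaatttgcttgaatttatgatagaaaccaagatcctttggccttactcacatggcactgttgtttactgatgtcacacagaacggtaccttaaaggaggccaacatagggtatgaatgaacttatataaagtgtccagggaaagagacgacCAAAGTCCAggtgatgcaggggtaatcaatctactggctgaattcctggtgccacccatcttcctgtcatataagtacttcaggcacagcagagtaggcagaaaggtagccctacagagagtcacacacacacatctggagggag
The element began 109, 99 and 95 bases before the start of Cyp3a11, Cyp3a16 and Cyp3a41a. Aligned without gaps, the windows of Cyp3a16 and Cyp3a41a were 94.6% identical over 296 bases, so these are copies and not independent matches. That of Cyp3a11 was 31.4% and 32.2% identical to them, but it shares long runs of letters with both that gaps shift out of register. Its match is therefore not taken as independent either. On both strands CAAAGTCCA was in 6 of 54 member windows (11.1%), those of these 3 genes and of Cyp2c40, Cyp2c65 and Cyp2c70, and in 0.475% of all windows. The withdrawal differences of the 6 genes ran from -1.92 for Cyp3a11 to 2.76 for Cyp2c65, so the element was present beside a fall, a rise and values that did not pass.

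In family 4 the falls lay in subfamilies 4a, 4f and 4v. In subfamily 4a only Cyp4a12b passed, falling by 3.19 ± 0.45 (adjusted p = 0.00322 in limma), 9.14-fold, from 5.66 to 1.90 and 1.38 in Fah and from 5.82 to 2.98 and 3.94 in FCR mice. Cyp4a10 and Cyp4a14, fatty acid hydroxylases that PPAR-alpha induces, differed by 0.38 and 0.33 over both genotypes. Neither passed, and both lay below 0 without the inflamed FCR array labelled off (-0.018 and -0.37). Subfamily 4f had a median of -2.16, and 4 of 7 members fell. Cyp4f18, which hydroxylates leukotriene B4, fell by 2.73 ± 0.53 (adjusted p = 0.0126), from 4.06 to 1.98 and 0.80 and from 3.71 to 0.33 and 1.52. Cyp4f14 fell by 2.52 ± 0.58, Cyp4f15 fell by 2.46 ± 0.43 (adjusted p = 0.0084) and Cyp4f13 fell by 2.16 ± 0.48. These last 3 genes are neighbours on chromosome 17. Cyp4f16, next to them, lay at -1.71, 0.35 and -0.18 in Fah and at -1.38, -0.81 and 0.01 in FCR mice. It was above both continuous arrays on all 4 withdrawal arrays without passing (1.39 ± 0.48, adjusted p = 0.105), and passed without FCR inflamed replicate 1 (1.59, adjusted p = 0.0248). Cyp4v3, a fatty acid hydroxylase, fell by 2.02 ± 0.52 (adjusted p = 0.0389), and Cyp4b1, known from lung, differed by -0.65 without passing.

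The same question was then asked within each genotype, where the single continuous array was assumed to vary like the other groups. Where an array of the same genotype was left out, 1 array was set against 1. The spread then came only from the pair of the other genotype, so counts without an array can change for that reason. In Fah mice 14 of 59 members passed (limma, adjusted p under 0.05), against 5.05% of all genes. In tumour 2 were higher than in healthy liver, where 3.91% of all genes were, and 12 were lower, where 1.13% of all genes were. The member median was -1.31. In FCR mice 5 of 59 passed, against 1.76% of all genes, with a median of -0.97. Cyp1a1 and Cyp2s1 rose, beside 1.55% of all genes, and Cyp2c37, Cyp2c23 and Cyp2c54 fell, beside 0.202% of all genes. These 5 passed in both genotypes. The share of all genes that passed in both was not counted. Both comparisons also share one estimate of the spread, so their calls are not independent. The rises in Fah and FCR mice were 4.96 ± 0.85 and 4.73 ± 0.85 for Cyp1a1, and 4.87 ± 0.70 and 4.64 ± 0.70 for Cyp2s1. The falls were -6.82 ± 0.80 in Fah and -4.17 ± 0.80 in FCR mice for Cyp2c54, and -5.31 ± 0.58 and -3.68 ± 0.58 for Cyp2c37. In FCR mice the count was 10 without inflamed replicate 1 (2.9% of all genes) and 25 without inflamed replicate 2 (11.4% of all genes), and each kept these 5. In Fah mice it was 13 without tumour replicate 1, where Cyp1a2 and Cyp4f14 passed as well and Cyp2a12, Cyp2c29 and Cyp2u1 no longer passed (adjusted p of 0.0553, 0.0726 and 0.101), and 10 without tumour replicate 2, where Cyp2j9 was lost as well (0.138). With slide as a block 27 members passed in Fah and 25 in FCR mice, along with 16.4% and 12.3% of all genes.

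The difference between the genotypes was tested itself. No member and no gene passed (limma), and 4 of 59 members and 2.15% of all genes lay at an unadjusted p under 0.05. The 4 were Cyp2f2, Cyp4a10, Cyp2c54 and Cyp2g1, each with a lower value in Fah. Cyp2f2 went from 8.73 to 4.94 and 4.49 in Fah and from 8.55 to 7.09 and 7.42 in FCR mice. Both tumour arrays were more than 2 log2 units below both inflamed arrays. The difference of -2.73 did not pass after adjustment over all genes (adjusted p = 1.00). Cyp4a10 was at 4.82, 3.1 and 4.05 in Fah and at 4.42, 7.20 and 5.62 in FCR mice. It was lower on both tumour arrays than in healthy liver and higher on both inflamed arrays than in normal FCR liver (-3.24, adjusted p = 1.00). These values are those of its brightest probe. The dimmest probe of Cyp4a10 lay at -0.48, -0.88 and 1.71 in FCR mice, below normal liver on the array labelled off. Its other dimmer probe moved like the brightest, at 3.88, 2.00 and 2.69 in Fah and 3.12, 3.93 and 4.43 in FCR mice. Over all members 40 of the 59 differences were negative and their median was -0.42, beside -0.06 for all genes. In 5 members (8.47%) both withdrawal arrays lay on one side of the continuous array in Fah mice and on the other side in FCR mice, which held for 6.48% of all genes.

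**Figure D5:**
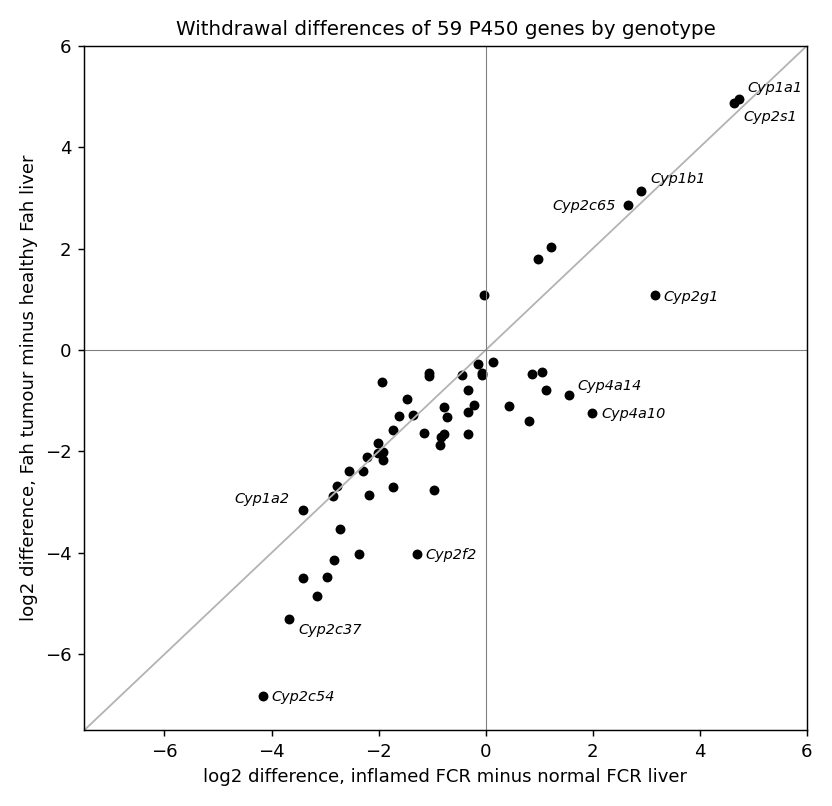
Log2 difference of each of the 59 tested P450 genes in Fah mice (tumour minus healthy, vertical axis) against that in FCR mice (inflamed minus normal, horizontal axis), 1 point per gene, with the line of equal differences. Cyp1a1, Cyp2s1, Cyp1b1 and Cyp2c65 lie near the line at upper right, and Cyp2f2, Cyp2c54, Cyp4a10, Cyp4a14 and Cyp2g1 lie below it.

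The next comparison set Fah tumour against inflamed FCR liver, each with 1 array of either withdrawal regimen. Cyp2g1 was the only member of 59 to pass, against 0.215% of all genes, and was lower in tumour by 4.08 ± 0.53 on the log2 scale (n = 2 and 2, adjusted p = 0.0291 in limma). It was also lower in healthy Fah than in normal FCR liver, at -3.80 and -1.80, so part of the gap was there on continuous NTBC. The difference was -3.97 on slide 1 and -4.20 on slide 2. Cyp2f2 differed by -2.54 ± 0.45 (adjusted p = 0.0774), with -2.15 on slide 1 and -2.93 on slide 2, and it passed without inflamed replicate 2 (adjusted p = 0.0181). Cyp4a10 differed by -2.84 ± 0.62 (adjusted p = 0.139), and it too passed without inflamed replicate 2 (-3.63, adjusted p = 0.00482). Both passed after normexp background correction (adjusted p of 0.00273 and 0.00395 in limma). Both also passed with slide as a block (0.000734 and 2.9e-05 in limma), a fit that leaves less to judge the spread by. On dimmer probes Cyp4a10 differed by -1.83 and -1.34. The member median was -0.54, beside -0.13 for all genes, and 40 of 59 were negative. The member median was -0.30 on slide 1, where that of all genes was -0.30 as well, and -0.79 on slide 2, where that of all genes was -0.02. With slide as a block 11 members and 6.31% of all genes passed. Without inflamed replicate 2, the array labelled 2xoff/on, 7 members (Cyp2g1, Cyp2f2, Cyp4a10, Cyp4a14, Cyp2b9, Cyp3a25 and Cyp4b1) and 4.64% of all genes passed. The series' own text sets both tumours against normal FCR liver and the inflamed liver labelled 2xoff/on. In that comparison no member and no gene passed, 20 of 59 members lay at an unadjusted p under 0.05 against 11.6% of all genes, and the median was -1.11 beside -0.15. Its FCR side mixes continuous NTBC with withdrawal. Without the inflamed array 31 members and 14.7% of all genes passed, and without the normal array 1 member, Cyp2g1, and 0.305% of all genes.

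The regimens 2xoff/on and off, which differ in slide as well, were compared over both genotypes. No member of 59 passed (limma), whereas 0.793% of all genes did, and 2 members lay at an unadjusted p under 0.05 against 17.1% of all genes. These were Cyp1b1, at -1.18 ± 0.43 (2xoff/on minus off, adjusted p = 0.227), and Cyp4v3, at 1.00 ± 0.43 (adjusted p = 0.29). The member median was 0.14. Without Fah tumour replicate 2, 1 member passed, Cyp4a31, along with 4.08% of all genes. On continuous NTBC, with 1 array per genotype and so no test, 5 members were lower in Fah than in FCR liver by at least 1 log2 unit, against 5.27% of all genes. They were Cyp2g1 (-2.00), Cyp2b9 (-1.73), Cyp2s1 (-1.42), Cyp2b13 (-1.41) and Cyp2b10 (-1.31). Cyp2c40 (1.21) and Cyp2c38 (1.13) were higher, against 3.02% of all genes.

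The partners and regulators of P450 enzymes were looked at in the same withdrawal comparison over both genotypes, in which 3.28% of all genes fell and 8.65% rose. Of 7 redox partners 1 fell, Cyb5b, a cytochrome b5 of the outer mitochondrial membrane, by 1.60 ± 0.43 (adjusted p = 0.0428 in limma). Por, the P450 oxidoreductase, was at 6.11, 6.32 and 6.32 in Fah and at 6.27, 7.51 and 6.67 in FCR mice and did not pass (0.51 ± 0.41). Of 21 regulators 4 fell and 1 rose, with a median of -1.13. Nr1i3, which encodes CAR, fell by 2.31 ± 0.43 (adjusted p = 0.0107), from 2.32 to -0.35 and 0.20 in Fah and from 2.72 to 0.64 and 0.36 in FCR mice. Ghr, the growth hormone receptor, fell by 2.48 ± 0.39 (adjusted p = 0.0051), Cebpa, a liver-enriched factor, fell by 2.39 ± 0.56, and Bcl6, a repressor in the growth hormone response, fell by 1.94 ± 0.48. Cux2, a factor known as female-specific in mouse liver, rose by 3.74 ± 0.65 (adjusted p = 0.0082). Ahr itself lay between 1.61 and 2.54 on all 6 arrays (0.18 ± 0.45, adjusted p = 0.856), while its targets outside the P450 families, Ahrr and Tiparp, differed by 0.97 and 1.31 without passing. Hnf4a differed by -1.20 (adjusted p = 0.0977), and Nr1i2, which encodes PXR, by -0.64.

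Of 12 genes of heme synthesis and breakdown 1 rose, a share near the 8.65% of all genes. This was Hmox1, the heme oxygenase that breaks heme down, at 2.87 ± 0.43 (adjusted p = 0.0044 in limma), and the median was -0.61. Alas1, the rate-limiting enzyme of heme synthesis in liver, went from 7.0 to 5.61 and 5.53 in Fah mice and lay at 6.01, 6.10 and 6.17 in FCR mice, and did not pass. Among 17 P450 genes of other families 15 were tested, and 3 fell while none rose. These were Cyp7b1, Cyp8b1 and Cyp27a1, enzymes of bile acid synthesis, with differences of -4.47 ± 0.54, -3.69 ± 0.62 and -3.02 ± 0.63. Cyp7a1, the rate-limiting enzyme of that pathway, differed by -0.06. The median of the other families was -0.17.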

How the data were processed

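RNA from 6 liver samples was measured on 1 single-colour array each. Per the file headers, the arrays were read by Agilent Feature Extraction 10.7.3.1 and their probe design was annotated on mm9. Feature Extraction 10.5 is the version in the submitters' processing notes. The deposited scanner files hold each spot's processed intensity, background-subtracted by that software without normalization across arrays. Log2 values, with array medians of 6.45 to 6.48, fill the authors' deposited series table, and the method behind their like medians was not stated in the labels.

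Control and outlier spots were left out, spots of a probe were averaged, and 29 probes missing on an array were dropped. From the log2 processed signal, the 75th percentile of its array was subtracted. Of 41145 probes, 26904 were named through accessions in a RefSeq table of GRCm38.p6, which served for names and gene order only; 14241 stayed unnamed. The brightest probe stood for each gene. The 61 members had 82 probes. For 17 members with several measured probes the withdrawal differences had a median range of 0.62, and 4 members (Cyp2a4, Cyp2b13, Cyp3a44 and Cyp4a10) had probes of opposite sign.

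Tests used limma 3.58.1 in R 4.3.3 (lmFit, then eBayes allowing the spread to depend on intensity) for genes that lay well above background on 2 or more arrays. They were two-sided, and Benjamini-Hochberg adjusted p-values over all genes were read at 0.05. A model of 4 group means over 6 arrays left 2 residual degrees of freedom. Fits with slide as a block or without an array left fewer, so their p-values rest on less information about the spread. The comparison named in the series text used its 4 arrays, and 2xoff/on was set against off in an additive model with genotype. The number of arrays limits the precision.

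Members and lists were chosen with earlier results of these data known. Members were named if they passed, if they were among the 10 largest rises or falls of a comparison, or as the brightest or most distant member of a subfamily. Alternatives were normexp with an offset of 50, quantile or median scaling, no or a stricter filter, the mean of a gene's probes, no trend, a common floor, the authors' values, slide or regimen as a block, an additive model and leaving out arrays. Robust eBayes and leaving out genes at the floor were chosen after seeing the data. In simulated data of 15378 genes with 200 changed by 4 log2 units in each of 5 draws, 88.8% were recovered for withdrawal over both genotypes, 47.3% and 42% for the Fah and FCR comparisons and 82% for tumour against inflamed liver. False calls were 4.11% to 5.02% of all calls made there. The simulated spread was drawn from the fitted model itself, with no slide or regimen differences and no outlying array. That share therefore cannot show whether the model holds for these data. With changes of 2 log2 units 0.1% were recovered for withdrawal (2 calls, 1 of them false) and 0% for the other 3 comparisons.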

Additional observations from a re-analysis of the deposited data

Results flagged for a closer look

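In 5 of 59 members (8.47%) every withdrawal array moved one way in Fah mice and the other way in FCR mice, a pattern shown by 6.48% of all genes. The difference between the 2 withdrawal comparisons was -3.24 for Cyp4a10, -2.45 for Cyp4a14, -1.93 for Cyp4f39, -1.54 for Cyp2c40 and -1.48 for Cyp2c38. On their brightest probes all were lower after withdrawal in Fah and higher in FCR mice. Tested as an interaction in limma, none passed over all genes, with an adjusted p of 1.00 for each and unadjusted p of 0.0147, 0.122, 0.0913, 0.0733 and 0.215. Cyp4a14 was at 5.18, 3.83 and 4.74 in Fah and at 4.60, 7.56 and 4.75 in FCR mice, so that in FCR mice the gap rests on the array labelled off. Cyp4f39 was at -2.86, -3.64 and -3.68 in Fah and at -2.99, -1.57 and -2.14 in FCR mice. In FCR mice a dimmer probe of Cyp4a10 lay at -0.48, -0.88 and 1.71 and one of Cyp2c40 at 3.32, 2.42 and 3.66. Both were below normal liver on the array labelled off, so the pattern did not hold on them. On the other dimmer probe of Cyp4a10 it did hold, at 3.88, 2.00 and 2.69 in Fah and 3.12, 3.93 and 4.43 in FCR mice.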

How the results depend on the processing

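Of all 59 members, none that passed over both genotypes changed sign under any alternative run. What moved was how many passed and the size of the differences. Scaling to the array median shifted all genes by -0.32 in that comparison and by -0.12 to -0.38 in the others. For withdrawal over both genotypes (27 members, median -1.22) quantile normalization and the authors' values each gave 15, with medians of -0.80 and -0.74, all 15 of them among the 27. Values raised to a common floor gave 0, also without the 223 genes at the floor on every array, and 10 with robust eBayes. The prior degrees of freedom were then 1.43 and 2.05, against 6.85. Leaving out an array gave 23 to 36 members and medians of -1.26 to -1.11. For Fah tumour against healthy liver (14) the count was 7 with the authors' values, 27 with slide as a block, 0 under each form of the floor and 10 to 13 without an array, and the median was -0.98 with quantile normalization, -1.70 with the array median, -0.80 with the authors' values and -1.54 to -1.35 without an array. For inflamed against normal FCR liver (5) it was 15 with normexp, 2 with quantile normalization or no filter and 2 without a trend, 0 with the authors' values and under each form of the floor, 25 with slide as a block, and 10 to 25 without an array (medians -1.20 to -0.88). For tumour against inflamed liver (1) it was 3 with normexp, 0 with quantile normalization, no filter, the authors' values and each form of the floor, 11 with slide as a block and 1 to 7 without an array (medians -0.66 to -0.33). Arrays of the same regimen share a replicate number, and the replicate block gave 1 member there, Cyp2g1 at -3.39. The design-text comparison gave 0 to 31 members without an array, medians of -1.35 to -0.66, and -0.77 with the authors' values. For 2xoff/on against off the median was -0.24 with the array median and -0.23 to 0.50 without an array, and 0 to 1 members passed. The difference between the genotypes gave 0 members in all 16 settings. Signs turned only for members that had not passed over both genotypes: Cyp2a4 (0.50 quantile, 0.0037 mean of probes, 0.63 authors' values, 0.17 slide block, -0.47 to 0.039 without an array), Cyp2a5 (0.47 and 0.48, quantile and authors), Cyp2a22 (-0.12 array median, -0.30 to 0.69 without an array), Cyp3a44 (1.46, mean of probes), Cyp4a10 (-0.025 mean of probes, -0.018 to 0.77 without an array) Cyp4a14 (-0.37 to 1.03 without an array), Cyp2c38 (-0.11 normexp, -0.012 array median, -0.075 slide block), Cyp2c40 (0.12 and 0.10, quantile and authors), Cyp4f39 (-0.10 normexp, -0.11 quantile, -0.14 array median), Cyp2b19 (-0.17 to 0.066 without an array) and Cyp4a31 (-0.84 to 0.25 without an array). Causes were not tested beyond the prior degrees of freedom under the floor. Of the 59 members 58 lay well above background on all arrays. Even so, the rises of Cyp1b1 and Cyp2c65 did not pass after normexp background correction.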
